A study of Rattus norvegicus with 16 samples.

Results

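Liver RNA from male Lewis rats aged 24 months was compared with liver RNA from male Lewis rats aged 9 months. Members were chosen by sample title, which gave 4 arrays at 24 months and 3 arrays at 9 months, 7 of the 16 arrays of an age series that also covers 3, 12 and 18 months. No animal was labelled as treated or genetically modified, and age is the one labelled difference between the groups. All rats were kept free of specific pathogens on a 12-h light/dark cycle with food and water always available, and liquid nitrogen was used to freeze the livers. The labels do not state the hour of collection, the time since the last meal, or whether each array came from a separate animal, so the p-values measure the spread between these samples, which may be technical. The labelling kit named in the labels is one for microRNA, while the arrays measured messenger RNA.

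The liver switches between storing and releasing fuel. After a meal, insulin and sterol-sensing factors raise the genes of glycolysis and fatty acid synthesis, and between meals the genes of glucose release, fatty acid oxidation and insulin-like growth factor binding rise in their place. This switching runs on top of a circadian clock, in which BMAL1 and CLOCK drive the Per, Cry, Rev-erb and PAR bZIP genes through E-box elements, and on top of a sex difference that is set in rats by the pattern of growth hormone pulses. The tissue also holds resident macrophages, sinusoidal endothelium and lymphocytes, and antigen presentation through MHC class II is carried by the professional antigen-presenting cells among them.

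Each value below is the log2 signal of a gene's probe relative to the 75th percentile of its array, so that 0 is the level below which 75% of the probes lie. Values of different probes are not compared with each other. A gene was called higher or lower where limma's moderated test across all 16 arrays gave a Benjamini-Hochberg adjusted p under 0.05.

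No spot was saturated, and 53% to 64.8% of the spots of the 7 arrays were well above background. The 24-month arrays varied more among themselves, with a median SD of 0.26 over 16536 genes against 0.15 at 9 months. Array 4 of the 24-month group correlated more with the 9-month arrays (mean 0.979) than with its own group (0.975). The other 24-month arrays correlated at 0.974 to 0.982 with their own group and at 0.955 to 0.970 with the 9-month arrays. Array 4 was also the dimmest of the 7, with a 75th percentile of 195 against 325 to 412 on the other 24-month arrays. Its share of spots well above background, 53%, was the lowest. Whether its signal level bears on its correlations was not tested. All 9-month arrays were scanned on the same day and all 24-month arrays on another, and no slide held both ages, so scan day, slide and age cannot be told apart. The hepatocyte list was measured with 24 of its genes, and its summed linear signal was 5527 to 5847 times the array's 75th percentile at 9 months and 3485 to 5332 times at 24 months. All of those 24 genes were above background at both ages.

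Of 21483 genes tested, 3616 were called, which is 16.8%. At 24 months 1283 genes (5.97%) were higher and 2333 (10.9%) were lower than at 9 months, and the median change over all genes was -0.07 on the log2 scale. A change of at least 2-fold was reached by 596 of the higher and 1272 of the lower genes. The excess of lower calls depended on the background correction. With a normexp correction of the raw signals, which moved the median change of all genes from -0.07 to 0.09, 601 genes were called, 299 higher and 302 lower, so that 49.8% of calls were higher against 35.5% without it. With slide as a random block 1020 genes were called, of which 1010 were among the 3616.

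**Figure D1:**
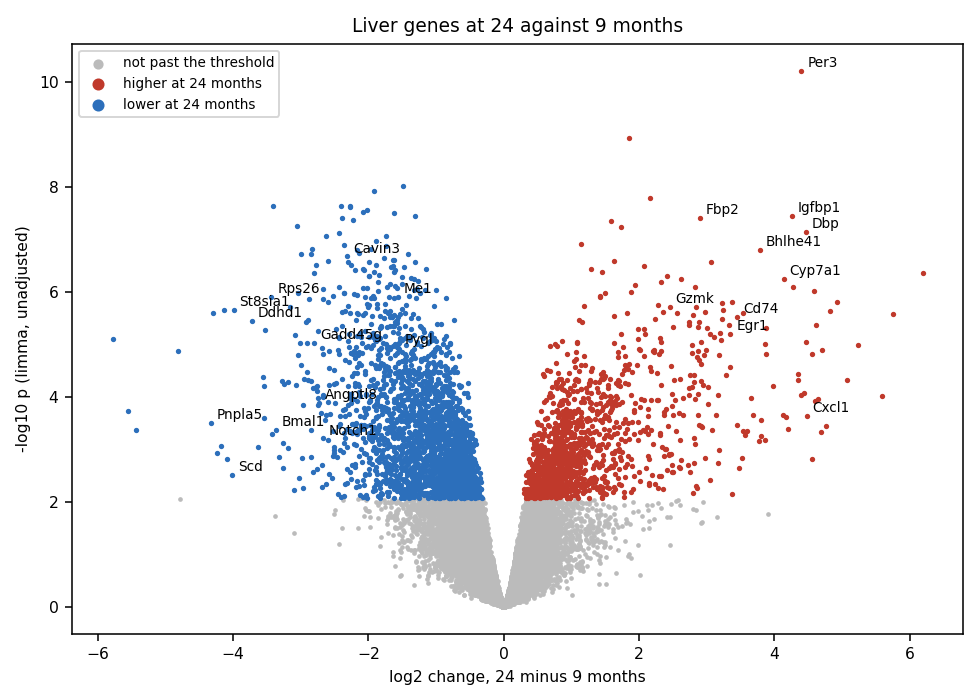
Each point is 1 of 21483 genes, with the log2 change of 24 against 9 months on the x axis and -log10 of limma's unadjusted p on the y axis; red points are the 1283 higher and blue points the 2333 lower genes. Per3 has the smallest p of the labelled genes, Igfbp1, Dbp and Cyp7a1 rise by more than 4 log2 units, and Pnpla5 and Scd fall by more than 4.

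The largest shares of higher genes were in the lists of lymphocyte markers, MHC class II presentation and chemokines, and the largest share of lower genes was in the list of fatty acid synthesis and lipid droplets. Of the T and NK cell markers measured, 17 of 21 rose and none fell (median change 2.35). Of the class II genes, 7 of 9 rose and none fell (median 2.78). Of the fatty acid synthesis and lipid droplet genes, 14 of 29 fell and none rose (median -1.01). Clock genes moved both ways, with 9 of 20 higher and 4 lower.

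**Figure D2:**
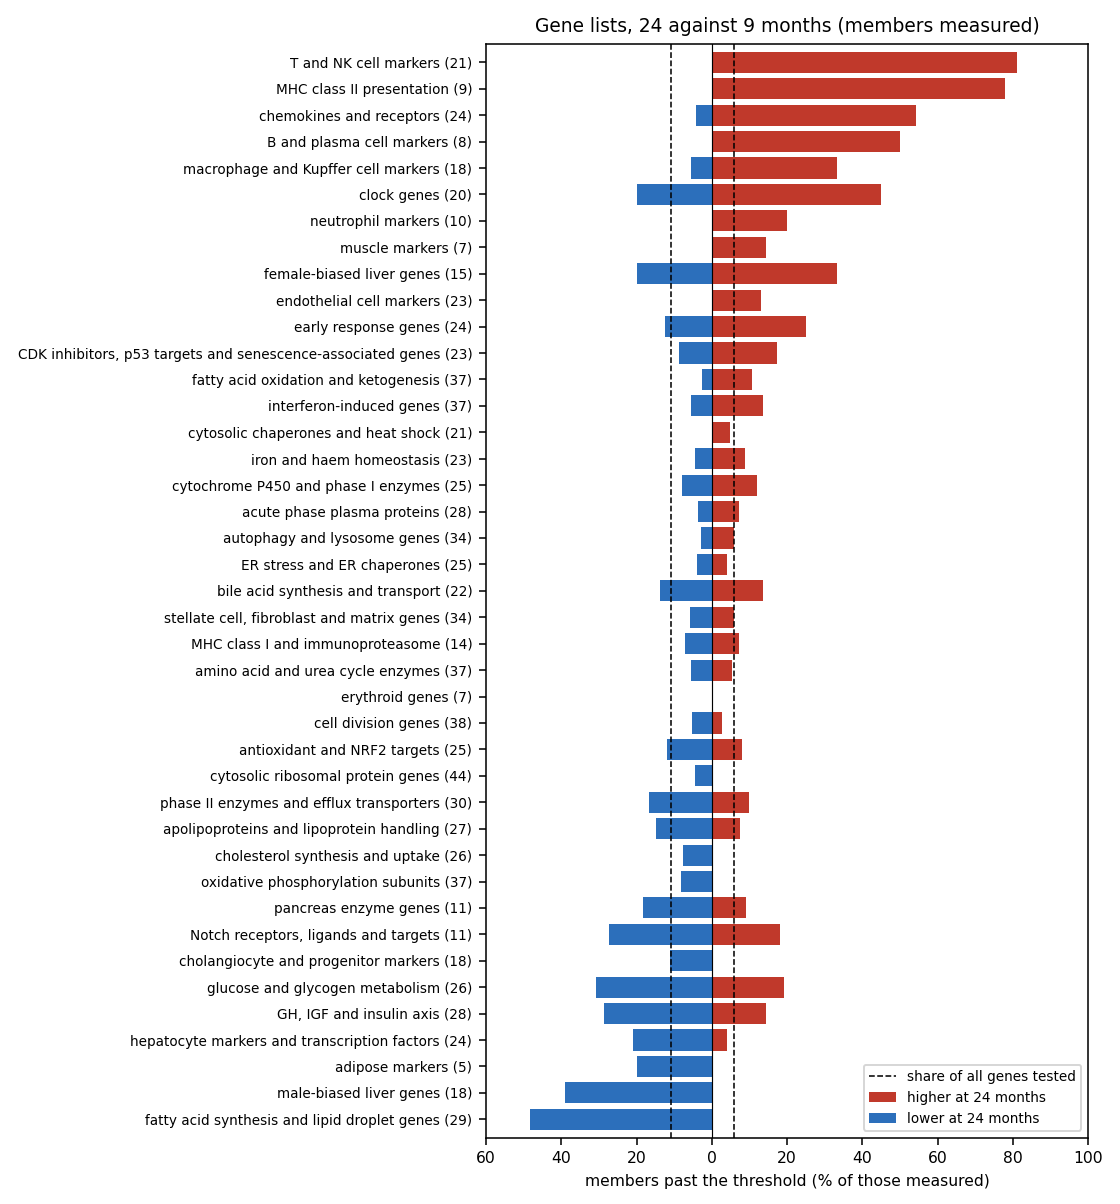
Bars give the percentage of the measured members of each gene list that were higher (red, to the right) or lower (blue, to the left) at 24 than at 9 months; the number measured stands in brackets and the dashed lines mark the shares over all 21483 genes, 5.97% higher and 10.9% lower. T and NK cell markers reach 81% higher, and fatty acid synthesis and lipid droplet genes 48.3% lower.

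Most of the MHC class II genes measured rose, and the mean of the list was highest on array 2. Cd74, the invariant chain that guards the class II groove until a peptide is loaded, was at 2.48, 2.55 and 2.21 on the 9-month arrays and at 5.0, 6.71, 6.12 and 5.62 on the 24-month arrays. The groups did not overlap, and the rise was 10.9-fold (log2 change 3.45, SE 0.45, adjusted p = 0.000368). RT1-Bb, the beta chain of the rat's DQ-type class II molecule, read 1.61, 1.56 and 1.27 at 9 months and 3.86, 5.5, 5.08 and 4.34 at 24 months, a 9.29-fold rise (adjusted p = 0.000658). RT1-Ba, the alpha chain that pairs with it, rose 7.36-fold (log2 change 2.88, SE 0.61), and RT1-Da and RT1-Db1, the chains of the DR-type molecule, rose 7.04-fold and 6.89-fold. In all 4 chains the lowest 24-month array lay above the highest 9-month array, as it did in 10.1% of the 21459 genes with a value on all 7 arrays. Ctss, the protease cathepsin S that trims the invariant chain, rose 1.57-fold only, and array 4 at 4.07 fell inside the 9-month range of 4.05 to 4.15.

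The 4 chain genes share a promoter element, which describes the gene family and not the change with age. The Y box, CTGATTGG, is the CCAAT element through which NF-Y is known to act on class II promoters. Searched on both strands between 250 bases before and 50 after the annotated gene start (RefSeq, build GRCr8), it lay upstream in these 4 of the 7 class II list genes that rose, and in 3.5% of all 33469 promoters of the same length. The windows below show it in capitals with its surroundings, because the 4 copies sit at like distances before their genes, beginning 46 to 83 bases before the start. Those of RT1-Ba and RT1-Da lie on the plus strand, at chr20:4576971-4577056 and chr20:4515323-4515410. Those of RT1-Bb and RT1-Db1 lie on the minus strand, at chr20:4604135-4604222 and chr20:4560198-4560285.
RT1-Ba: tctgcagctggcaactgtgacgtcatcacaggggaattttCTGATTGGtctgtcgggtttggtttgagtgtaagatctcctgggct
RT1-Bb: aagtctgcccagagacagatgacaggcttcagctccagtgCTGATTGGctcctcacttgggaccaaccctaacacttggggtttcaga
RT1-Da: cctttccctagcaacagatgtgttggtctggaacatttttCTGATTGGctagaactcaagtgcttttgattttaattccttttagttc
RT1-Db1: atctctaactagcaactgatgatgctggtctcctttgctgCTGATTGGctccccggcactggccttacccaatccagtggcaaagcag
The letters are a description of the sequence, and no binding was measured. Class II list genes that did not rise were not searched, so the count cannot be set against the change with age. The RT1 genes are close relatives, and cross-hybridisation between their probes was not tested.

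Cd74 held its call when any single array was left out and with slide as a random block. With that block the calls of RT1-Bb, RT1-Da, RT1-Db1 and RT1-Ba were lost (adjusted p = 0.058, 0.0863, 0.0943 and 0.138), leaving Cd74 alone of the list, and that of Ctss was lost when any 1 array but 24-month array 4 was left out (adjusted p up to 0.124).

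T and NK cell genes were higher on all 4 of the 24-month arrays. Cd3g, the gamma chain of the T cell receptor's CD3 complex, was at -1.5, -1.63 and -1.61 at 9 months and at 0.76, 2.06, 2.21 and 0.55 at 24 months, a 7.86-fold rise (log2 change 2.97, SE 0.39, adjusted p = 0.000345). The kinase Zap70, which binds the activated CD3 chains, lay between -1.37 and -1.35 at 9 months and read 0.67, 2.24, 2.16 and 0.70 at 24 months (6.96-fold). The same arrays, 2 and 3, were the highest for both genes, with arrays 1 and 4 lower but still above every 9-month array. Lat, the membrane scaffold of that signal, rose 5.10-fold, and Gzmk, a granule protease of cytotoxic cells, 5.48-fold. Receptors of NK cells rose by like amounts: Klrd1 9.20-fold, Klrc3 8.05-fold and Klre1 7.55-fold. Ptpn22, a phosphatase of lymphocyte signalling, was well above background on all 4 of the 24-month arrays and on none at 9 months, a rise of at least 6.34-fold. In whole tissue, more cells of a type and more RNA per cell cannot be told apart.

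The summed linear signal of the 21 T and NK cell markers was 12.4 to 14.1 times the 75th percentile at 9 months and 43.5 to 141 times at 24 months. Of the genes just named Ptpn22 was not called with the normexp correction (adjusted p = 0.155) and was not among the genes tested where probes had to be above background on all arrays. Its smallest log2 change over the alternatives was 0.83, below its bound. The other genes just named kept their calls in every alternative tried. Over the list, 14 to 18 genes were called higher under the alternatives other than the 7 arrays alone, which called 13, and the slide block, which called 9.

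Chemokines and their receptors also rose, 13 of 24 higher against 1 lower (median change 1.29). Cxcl1, which draws neutrophils, read -0.65, -0.81 and -0.17 at 9 months and 4.33, 2.40, 6.81 and 2.20 at 24 months, a 22.3-fold rise (log2 change 4.48, SE 0.90, adjusted p = 0.00463). The 24-month arrays spread over more than 4 log2 units, with array 3 the highest, and none reached down to the 9-month arrays. The T cell chemokine Ccl5 read 2.25, 2.52 and 2.47 at 9 months against 4.78, 5.97, 6.49 and 4.49 at 24 months (8.11-fold), and Ccl4, another chemokine of the CC family, rose 7.54-fold. Cxcr3, the receptor for the interferon-induced chemokines, was above background at 24 months alone, at least 5.91-fold higher, and its ligand Cxcl10 rose 3.97-fold (log2 change 1.99, SE 0.45). Cxcr4, a homing receptor of lymphocytes, lay between -6.06 and -4.74 on 9-month arrays that were not above background and between -2.88 and -1.78 at 24 months (adjusted p = 0.000333). With the slide block the calls of Ccl5, Ccl4, Cxcl1, Cxcr3 and Cxcl10 were lost (adjusted p = 0.0618, 0.0674, 0.0678, 0.0513 and 0.182), and the list's higher count was 2. With the normexp correction the calls of Cxcr3 and Cxcr4 were lost (adjusted p = 0.119 and 0.0823) and 7 of the list were higher (median change 0.65), and with the 7 arrays alone 8 were. The smallest log2 change of Cxcr3 over the alternatives was 0.90, below its bound.

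Of 37 interferon-induced genes 5 were higher and 2 lower (3 to 6 and 0 to 3 when 1 array was left out), with a median change of 0.09. Among them Gbp2, an interferon-induced GTPase, rose 2.94-fold and Zbp1, a sensor of nucleic acids, 3.16-fold. Ubd, a ubiquitin-like modifier induced by interferon and tumour necrosis factor that belongs to the list of class I genes and the immunoproteasome, rose 8.64-fold. It read -3.86, -3.40 and -3.51 at 9 months and -1.55, 0.62, -0.37 and -0.61 at 24 months, with array 2 the highest. Gbp2, at 1.60 to 1.80 at 9 months and 2.64 to 4.07 at 24 months, was also highest on array 2. Class I genes and the immunoproteasome gave 1 of 14 higher, which is Ubd, and 1 lower. With the slide block Ubd, Zbp1 and Gbp2 had adjusted p = 0.0593, 0.0817 and 0.181 and no gene of the interferon list was called. Zbp1 and Gbp2 were not called with the normexp correction either (0.201 and 0.0628), where 1 gene of the list was higher.

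Of the macrophage and Kupffer cell markers 6 of 18 were higher and 1 lower, with a median change of 0.47. Aif1, a macrophage calcium-binding protein, read 3.76, 3.75 and 3.76 at 9 months and 4.33, 4.43, 4.72 and 4.23 at 24 months, a 1.59-fold rise (adjusted p = 0.00269). Lyz2, lysozyme, rose 2.66-fold, Cd68, a lysosomal glycoprotein of macrophages, 1.70-fold and Adgre1, a surface receptor of macrophages, 1.56-fold. Gpnmb, a glycoprotein of lipid-laden macrophages, rose 5.15-fold, from a range of -0.55 to -0.41 to values of 1.67, 3.30, 2.06 and 0.60. The summed signal of the 18 markers was 328 to 340 times the 75th percentile at 9 months and 368 to 518 times at 24 months. The call of Adgre1 was lost without 9-month array 1 or array 3 (adjusted p up to 0.0603), those of Lyz2 and Gpnmb with the slide block (0.0781 and 0.104), and those of Aif1, Cd68 and Adgre1 with the normexp correction. The list's higher count was 1 with the normexp correction, 2 with the 7 arrays alone, 3 with the slide block, 3 without either of those 9-month arrays and 11 without 24-month array 4.

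Of 8 B and plasma cell markers measured 4 rose and none fell, and several of these and of the neutrophil genes were highest on 24-month array 3. Mzb1, a chaperone of antibody-secreting cells, was not above background at 9 months and read -2.53, -2.76, 0.36 and -3.77 at 24 months, where 3 of 4 arrays measured it. Tnfrsf17, the B cell maturation antigen of plasma cells, read -2.60, -3.16, 0.17 and -5.24, and was also measured on 3 of 4 arrays. Against the lowest measurable signal at 9 months the rises were at least 5.94-fold for Mzb1 and at least 4.11-fold for Tnfrsf17. Over the alternatives their smallest log2 changes were 0.90 and 0.81, below these bounds. Fcrla, a B cell protein, was instead highest on array 4, at 2.13, with the other 24-month arrays between -1.85 and -0.97 and the 9-month arrays between -4.02 and -2.30. In the neutrophil list 2 of 10 genes rose. S100a9, a calprotectin subunit, read 2.90, 0.98, 4.91 and -0.03 at 24 months against -1.07 to -0.42 at 9 months, and Fcnb, a ficolin of myeloid cells, rose 2.5-fold. The summed neutrophil signal was 2.65 to 3.08 times the 75th percentile at 9 months, and 14.5, 8.64, 423 and 3.83 times on the 24-month arrays. Array 3 was thus far above the others, and array 4 near the 9-month level. The mean log2 level of the neutrophil list, centred over all 16 arrays, was 1.77, 1.54 and 1.89 at 3 months. That was above 24-month arrays 1, 2 and 4 (0.21, -0.19 and -1.05) and below array 3 (2.45). The B and plasma cell list was at 0.09, 0.25 and 0.49 at 3 months and at 0.41, 0.12, 1.76 and 0.01 at 24 months. The call of S100a9 was lost when any 1 array but 24-month arrays 2 and 4 was left out (adjusted p up to 0.116), that of Fcrla without 9-month array 2 or 3 or 24-month array 1 (up to 0.125), and with the slide block those of Fcnb and Tnfrsf17 (0.128 and 0.0633). The B and plasma cell count was 2 without 9-month array 2 or 3, the neutrophil count was 1 without any 1 of the 9-month arrays or 24-month array 1 and 6 without 24-month array 4, and with the normexp correction no gene of either list was called. The 7 arrays alone and the slide block each called 1 B and plasma cell gene and no neutrophil gene.

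**Figure D3:**
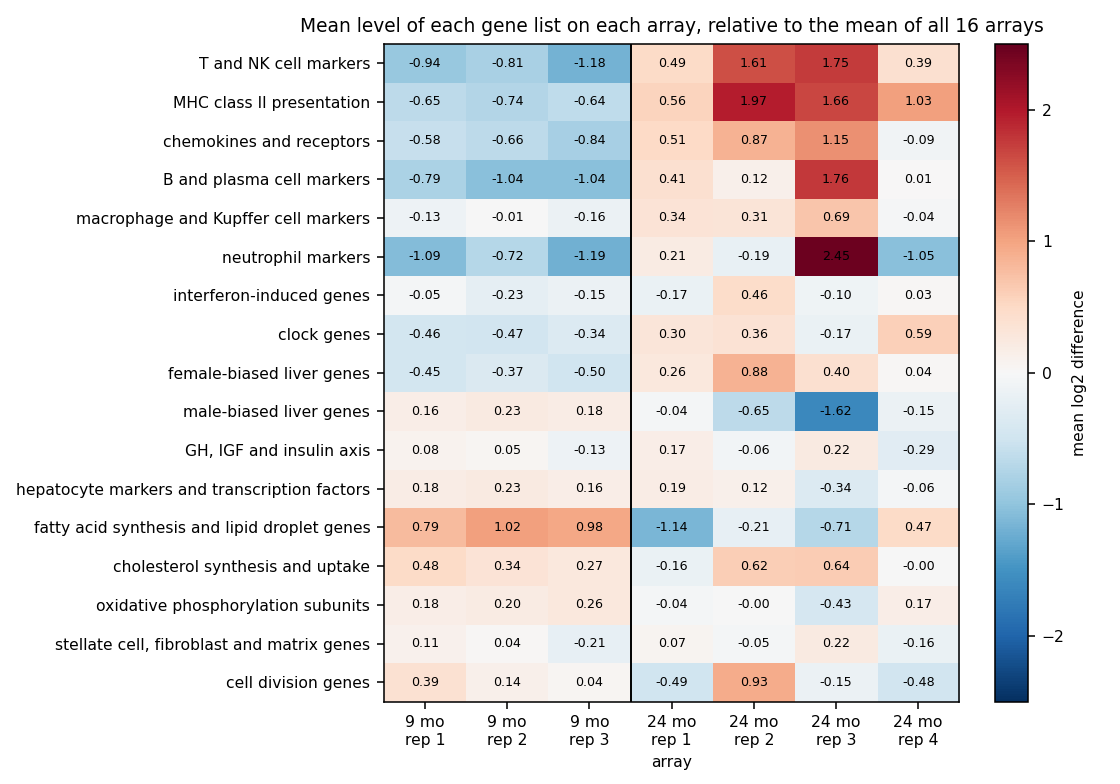
Each cell is the mean log2 level of a gene list's measured members on 1 array, after each gene is centred on its mean over all 16 arrays; columns are the 3 arrays at 9 months and the 4 at 24 months, and red is higher. T and NK cell markers are below 0 on each 9-month array and above 0 on each 24-month array (0.49, 1.61, 1.75 and 0.39), neutrophil markers stand out on 24-month array 3 (2.45), and fatty acid synthesis is lowest on array 1 (-1.14) and above 0 on array 4 (0.47).

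The clock genes differed by large amounts in opposite directions. Dbp, a PAR bZIP factor that peaks in the rat's late day, read -0.41, -0.55 and -0.11 at 9 months and 4.87, 3.63, 2.91 and 5.03 at 24 months, a 22.1-fold rise (log2 change 4.47, SE 0.43, adjusted p = 7.27e-05). Its relative Tef rose 4.48-fold, from between -1.77 and -1.44 to between 0.12 and 0.75. Per3, a repressor of the clock, was on no 9-month array above background and read -1.89, -2.48, -2.91 and -2.20 at 24 months, at least 5.18-fold higher (adjusted p = 1.29e-06). Bhlhe41, which competes with CLOCK and BMAL1 for E-boxes, rose 13.8-fold, Nr1d2, the nuclear receptor REV-ERB beta, 3.83-fold, and Usp2, a clock-driven deubiquitinase, 9.78-fold. Bmal1, the activator itself, moved the other way, from 2.25, 2.27 and 2.21 at 9 months to -1.98, -0.91, 0.46 and -2.06 at 24 months, a 10.3-fold fall (log2 change -3.37, SE 0.73, adjusted p = 0.00692). On array 3, where Bmal1 was least reduced, Dbp and Usp2 were least raised (2.91 and 0.28).

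The clock genes did not follow age in steps. Dbp averaged -0.59 at 3 months, -0.36 at 9, 5.41 at 12, 4.75 at 18 and 4.11 at 24 months, and Bmal1 averaged 2.23, 2.24, -2.34, -2.49 and -1.13. The 3- and 9-month means lay together, and the 3 later ages lay together. The hour at which each group was collected is not stated, so a difference in hour and a difference in age cannot be told apart. The calls of Dbp, Tef, Bhlhe41, Nr1d2 and Usp2 held in every alternative tried, and that of Per3 in all but the filter for probes above background on all arrays, under which it was not tested. That of Bmal1 was lost with the slide block (adjusted p = 0.129), where the list counted 7 higher and 1 lower.

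Clock elements were found in a few of these promoters, in the same RefSeq windows of build GRCr8. The E-box CACGTG, which reads the same on both strands, was in 2 of the 9 clock genes that rose, Tef and Bhlhe41, and in 1 of the 4 that fell, Bhlhe40, against 6.42% of all promoters. The D-box TTANGTAA, the site of DBP and TEF, was in 1 of the 9, Per2, and none of the 4 (2.24% of all promoters), and the core TNGGTCA of the site read by ROR and REV-ERB was in none of the 9 and 1 of the 4, Bmal1 (11.14% of all promoters). Both of these were searched on both strands. The windows are shown for Tef, Bhlhe41 and Bmal1, whose levels are given here, with the element in capitals. They lie at chr7:115206589-115206674 on the plus strand for Tef, chr4:180569358-180569443 on the minus strand for Bhlhe41 and chr1:176766272-176766327 on the plus strand for Bmal1.
Tef: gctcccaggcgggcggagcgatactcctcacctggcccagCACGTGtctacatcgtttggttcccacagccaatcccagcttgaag
Bhlhe41: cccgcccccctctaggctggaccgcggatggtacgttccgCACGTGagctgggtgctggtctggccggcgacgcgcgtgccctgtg
Bmal1: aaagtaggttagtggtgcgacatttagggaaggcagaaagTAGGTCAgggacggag
Dbp, Per3, Nr1d2 and Usp2 have none of these 3 elements in these windows, which says nothing of sites elsewhere.

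**Figure D4:**
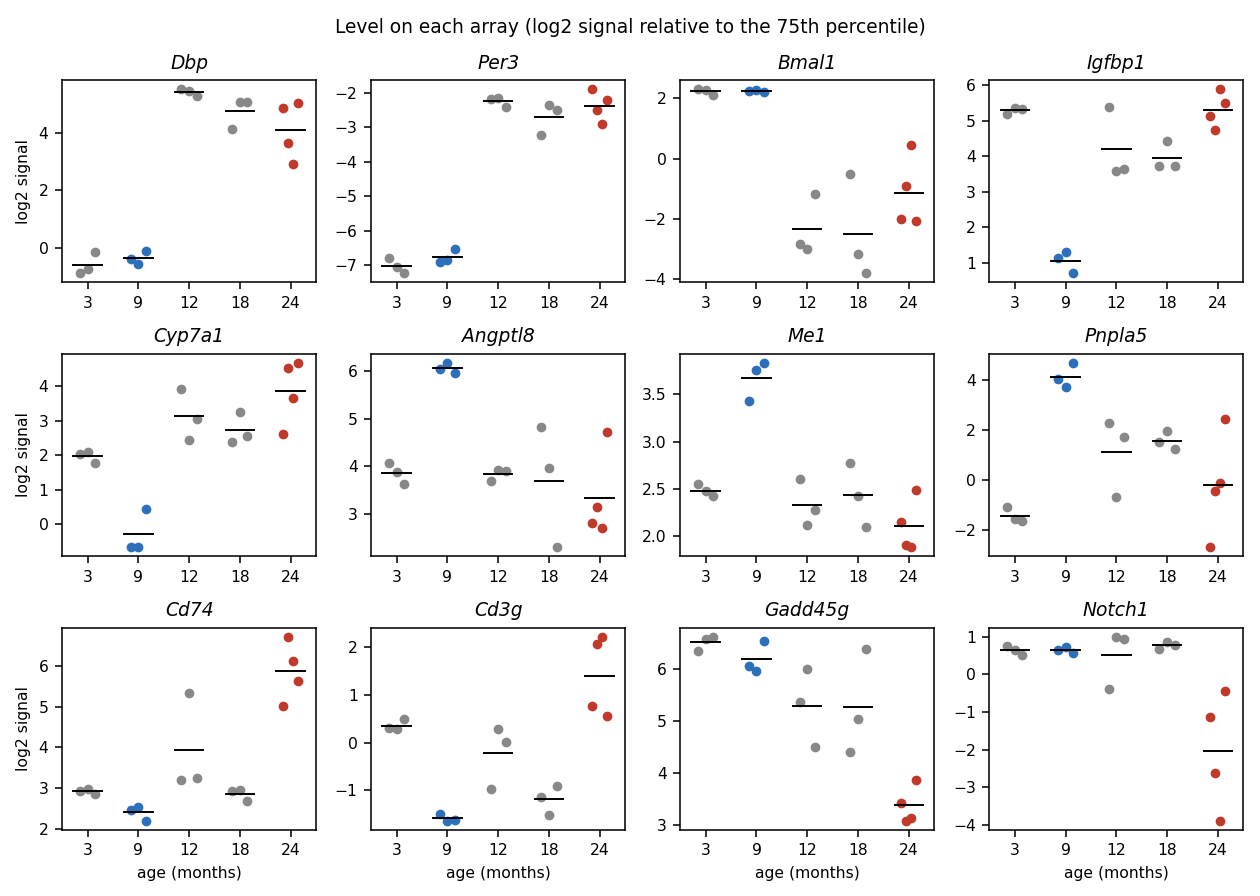
Each panel gives the log2 signal of 1 gene, relative to the array's 75th percentile, on all 16 arrays by age in months; points are arrays (9 months blue, 24 months red, other ages grey) and bars are group means, and each panel has its own y range. Dbp, Per3 and Bmal1 divide the ages into 3 and 9 against 12, 18 and 24 months, Angptl8 and Me1 are high at 9 months alone, and Notch1 has its lowest mean at 24 months.

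The fatty acid synthesis and lipid droplet genes that were called all fell, but unevenly between arrays. Centred over all 16 arrays, the list's mean log2 level was highest at 9 months (0.79, 1.02 and 0.98). It was -0.51, -0.54 and -0.42 at 3 months, from -0.33 to 0.33 at 12 and 18 months, and -1.14, -0.21, -0.71 and 0.47 at 24 months. Pnpla5, a lipid droplet lipase, read 4.01, 3.71 and 4.66 at 9 months and -2.68, -0.46, -0.11 and 2.44 at 24 months, a fall of 4.33 on the log2 scale (SE 0.90, adjusted p = 0.0056). Scd, the desaturase that makes oleate, was at 7.28, 7.62 and 7.94 at 9 months and at 0.21, 2.88, 4.22 and 7.09 at 24 months (16.1-fold, adjusted p = 0.0251), and its paralogue Scd2 fell 18.0-fold. In all 3 genes array 1 was lowest and array 4 came close to the 9-month arrays, without overlap; every 24-month array lay below the 9-month arrays in 16.6% of all genes with a value on all 7 arrays. Me1, the malic enzyme that supplies NADPH, fell evenly, from 3.43, 3.76 and 3.83 to 2.15, 1.91, 1.89 and 2.49 (2.95-fold, SE 0.19 on a log2 change of -1.56, adjusted p = 0.000241). Fasn, the fatty acid synthase, fell 5.27-fold, Pklr, the pyruvate kinase of liver, 3.65-fold, and the elongase Elovl5 and the desaturase Fads1 2.5-fold and 2.16-fold.

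The summed signal of the 29 genes was 1048 to 1315 times the 75th percentile at 9 months and 220.3, 396, 263 and 1124 times on the 24-month arrays. The call of Fasn (adjusted p = 0.049) was lost when any 1 array but 24-month array 4 was left out, up to 0.129, and that of Scd without any 1 of the 9-month arrays or 24-month array 2, up to 0.0815. With the slide block 2 of the list were lower, and the calls of Pnpla5, Scd, Scd2, Pklr, Fads1 and Fasn were lost (adjusted p = 0.114, 0.168, 0.0985, 0.0655, 0.0705 and 0.425). Fasn was also not called with quantile normalization, the series table, no probe filter or the replicate block. Neither Fasn nor Scd was called with the scan session of both ages alone, where 1 gene of the list was higher and 11 were lower. Elovl5, Fads1 and Fasn were not called with the normexp correction (0.0927, 0.0503 and 0.0718), and Scd, Scd2, Fads1 and Fasn with the 7 arrays alone. The list's lower count was 8 with the normexp correction, 9 with the 7 arrays alone, 9 without 9-month array 3 and 18 without 24-month array 4.

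In cholesterol synthesis and uptake 2 of 26 genes fell (7.69%, against 10.9% of all genes), none rose, and the median change was -0.18. Those that fell, Dhcr7, the last enzyme of the pathway to cholesterol, and Pmvk, a kinase of the mevalonate pathway, changed 2.03-fold and 1.92-fold. Dhcr7 read 4.76 to 4.84 at 9 months and 3.06, 4.26, 4.33 and 3.49 at 24 months, with arrays 1 and 4 the lowest. Its call was lost when any 1 array but 24-month arrays 2 and 3 was left out (adjusted p up to 0.0859), and that of Pmvk without 9-month array 1 (0.0643), while 2 genes of the list rose without 24-month array 1, and 2 without 24-month array 4. No gene of the list fell with the slide block or the 7 arrays alone.

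Glucose and glycogen genes moved both ways, with 5 of 26 higher and 8 lower. Gckr, a regulatory protein of hepatocyte nuclei, fell 4.75-fold, from 7.73 to 7.84 down to 4.54, 5.01, 5.88 and 6.71. Pygl, the liver glycogen phosphorylase, fell 2.94-fold (4.31 to 4.36 against 2.45 to 3.43, adjusted p = 0.000776), while Gys2, the liver glycogen synthase, rose 1.89-fold. Epm2a, the glycogen phosphatase laforin, was above background at 24 months alone and at least 5.77-fold higher. Fbp2, the muscle-type fructose bisphosphatase, read -1.16, -1.84 and -1.58 at 9 months and 1.46, 1.67, 1.46 and 0.91 at 24 months (7.49-fold, adjusted p = 5.18e-05). It was 1 of 7 muscle markers measured, and the other 6 did not pass the test. The calls of Gckr and Gys2 were lost with the slide block (adjusted p = 0.0704 and 0.0788), where the list had 1 higher and 3 lower, and Gys2 was not called with the normexp correction, where 2 were higher. With the 7 arrays alone 3 were higher and 4 lower. The list's lower count was 3 without 9-month array 2, where the higher count was also 3, and 5 without 9-month array 1 or 3.

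Igfbp1, the binding protein that insulin suppresses, was at 1.13, 1.31 and 0.71 at 9 months and at 5.13, 4.74, 5.88 and 5.48 at 24 months, a 19.1-fold rise (log2 change 4.26, SE 0.39, adjusted p = 5.18e-05). Its mean was 5.30 at 3 months, 4.20 at 12 and 3.96 at 18 months, so that the 9-month arrays were the low ones of the series. Angptl8, an insulin-induced inhibitor of lipoprotein lipase, read 6.05, 6.17 and 5.97 at 9 months and 2.79, 3.14, 2.69 and 4.72 at 24 months (6.63-fold lower), against means of 3.85, 3.84 and 3.70 at 3, 12 and 18 months. Of the insulin receptor substrates, Irs2 rose 3.02-fold, with 9-month values of -0.61 to -0.18 and 24-month values of 0.57 to 2.02, and Irs3 fell 7.18-fold, from 0.49 to 0.96 down to -3.57, -1.22, -2.46 and -1.13. The call of Igfbp1 held in every alternative, and those of Angptl8, Irs2 and Irs3 were lost with the slide block (adjusted p = 0.0835, 0.155 and 0.201); with the mean of its probes Irs2 was not called (0.0633).

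The list of the growth hormone, IGF and insulin axis had 8 of 28 genes lower and 4 higher. Its median change was -0.41, while the mean of its members' changes was 0.01, since the few rises were large. Stat5b, the main transcription factor downstream of the growth hormone receptor, fell 1.99-fold, from -0.39, -0.06 and -0.48 to -1.5, -1.40, -1.01 and -1.28 (adjusted p = 0.00442), and Stat5a 1.63-fold. H19, an imprinted noncoding RNA that is silenced in liver after birth, rose 9.03-fold on 24-month values of 2.38, 1.58, 1.36 and -1.29, the last of which lay inside the 9-month range of -3.01 to -1.11. The calls of H19 and Stat5a were lost without 9-month array 3 (adjusted p = 0.0599 and 0.0555) and with the slide block (0.153 and 0.149), that of Stat5b was lost with the normexp correction (0.188), and those of H19 and Stat5a with the 7 arrays alone. The list's lower count was 1 with the slide block, 1 with the 7 arrays alone and 2 with the normexp correction, and it was 2, 4 and 1 without 9-month array 1, 2 and 3, and 5 without 24-month array 2 or 3.

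Male-biased liver genes were lower at 24 months, by amounts that differed widely between the arrays. Obp3 and Mup4, lipocalins of the alpha-2u-globulin family that male rats make in liver and excrete in urine, had 9-month values of 5.35, 6.07 and 5.98 and of 5.78, 5.62 and 5.74. At 24 months Obp3 read 3.50, 1.07, -1.47 and 3.77 (16.9-fold lower, adjusted p = 0.016), and Mup4 read 4.32, 2.58, -0.47 and 4.58 (7.78-fold lower, adjusted p = 0.0367). Array 3 was lowest and arrays 1 and 4 were highest in both, and no 24-month array reached a 9-month one. The steroid hydroxylases Cyp2c13 and Cyp2a2 fell 1.77-fold and 1.67-fold, and in all 7 of 18 genes of the list fell and none rose (median change -0.80). The family members are near-identical in sequence, and cross-hybridisation was not tested. Among the 7 lower genes was A1bg, 4.24-fold lower (limma adjusted p = 0.0291) and above background on 1 of the 24-month arrays. Its call was lost without any 1 of the 9-month arrays or 24-month array 1 or 3 (up to 0.0983). All animals were male, so the sex bias of the listed genes was not tested here. The list's lower count did not hold: it was 2, 0 and 1 without 9-month array 1, 2 and 3, 0 with the 7 arrays alone, 1 with the normexp correction and 2 with the slide block. Nor was the higher count always 0: 1 gene was higher without 24-month array 3, and 2 without 24-month arrays 3 and 4. The call of Obp3 was lost without 9-month array 2 or 3 (adjusted p up to 0.0591), that of Mup4 without any 1 of the 9-month arrays or 24-month array 2 (up to 0.0995), that of Cyp2c13 without the same 4 arrays (up to 0.0669), and that of Cyp2a2 without 9-month array 2 (0.0625).

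Genes with a female bias moved both ways, 5 of 15 higher and 3 lower (3 to 5 and 1 to 3 when 1 array was left out). Cux2, a transcription factor of female liver, read -3.03, -3.14 and -2.61 at 9 months and -1.01, 2.5, 1.68 and -0.98 at 24 months (11.1-fold higher, adjusted p = 0.0206), and Trim24, a nuclear receptor cofactor, -2.74, -2.59 and -2.74 against -0.51, 1.42, 1.66 and -1.67 (7.54-fold higher). Both were highest on arrays 2 and 3, the arrays on which Obp3 and Mup4 were lowest. Sult2a2, a sulphotransferase of steroids and bile acids, rose 5.67-fold, from between -3.20 and -2.61 to -0.94, -0.65, 0.57 and -0.94, and Cyp17a1, the steroid 17-hydroxylase, 6.29-fold. Cyp2c7 and Cyp3a9, both P450 enzymes, fell 1.84-fold and 1.91-fold. Sult2a2 and Cyp17a1 kept their calls in every alternative, while Cux2 lost its call without any 1 of the 9-month arrays or 24-month array 2 or 3 (adjusted p up to 0.071) and with the mean of its probes (0.0677), Cyp3a9 without 9-month array 2 or 3 (up to 0.0774), and Trim24 and Cyp2c7 with the slide block (0.0796 and 0.11). No gene of the list was lower with the slide block or the normexp correction, where 2 and 3 were higher.

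Bile acid genes showed a rise of the first enzyme and a fall of the receptor that restrains it. Cyp7a1, the rate-limiting enzyme of bile acid synthesis, read -0.65, -0.65 and 0.46 at 9 months and 2.61, 4.5, 3.64 and 4.66 at 24 months, a 17.6-fold rise (log2 change 4.14, SE 0.47, adjusted p = 0.000168). Nr1h4, the bile acid receptor FXR, fell 1.64-fold, from 1.77, 1.99 and 1.83 to 1.23, 1.05, 1.12 and 1.20 (adjusted p = 0.00126). Abcg5, a sterol exporter of the canalicular membrane, rose 7.41-fold, from -0.08, -0.99 and -0.93 to 3.52, 1.79, 1.20 and 2.37. Abcc3, which exports conjugates to the blood, rose 6.11-fold with 1 of the 24-month arrays, array 4 at -2.47, just above the 9-month maximum of -2.63, and Abcc2, which exports them to bile, fell 1.91-fold. Of the 22 genes 3 rose and 3 fell, and 1 fell without any 1 of the 9-month arrays, with the normexp correction or with the 7 arrays alone. Cyp7a1, Nr1h4 and Abcg5 kept their calls throughout, apart from the 2-fold criterion for Nr1h4. Abcc3 lost its call with the slide block (adjusted p = 0.0673) and the 7 arrays alone, and Abcc2 without any 1 of the 9-month arrays or 24-month array 1 (up to 0.0861).

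Early response genes split, 6 of 24 higher and 3 lower (5 without 24-month array 4). Egr1, an immediate early transcription factor, read -0.12, -0.13 and -0.44 at 9 months and 3.24, 1.87, 3.66 and 3.72 at 24 months, a 10.2-fold rise (adjusted p = 0.00058). Gadd45b, a stress-induced regulator of MAP kinase signalling, rose 4.94-fold, from between -0.05 and -0.01 to 1.89, 2.01, 2.83 and 2.38, and the zinc finger factor Klf6 2.10-fold. Gadd45g, of the same family as Gadd45b, went down, from 6.05, 5.97 and 6.53 to 3.42, 3.09, 3.14 and 3.86 (6.98-fold, adjusted p = 0.000688). Fosb, a partner of Jun in AP-1, fell 1.96-fold, from 1.63, 2.03 and 1.51 to 0.61, 0.72, 0.65 and 1.04. The mean of Gadd45b was 2.36 at 3 months, -0.03 at 9, 1.97 at 12 and 1.51 at 18 months, so that 9 months was the low point, whereas Gadd45g had its lowest mean at 24 months. The call of Gadd45g was lost with the slide block (adjusted p = 0.0561), where the list had 3 higher and 1 lower, and that of Klf6 with the normexp correction (0.0758).

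Of the hepatocyte genes, 5 of 24 fell and 1 rose, and those named here are transcription factors. Foxa1, which opens liver enhancers, fell 1.82-fold, from 1.20, 1.08 and 1.22 to 0.45, 0.33, 0.08 and 0.36 (adjusted p = 0.00217). Cebpa fell 1.92-fold and Onecut1 3.82-fold, and Nr5a2, an orphan receptor that acts on bile acid genes, rose 1.32-fold. The median change of the list was -0.21, and -0.03 with quantile normalization, under which 3 genes fell. The lower count was 3 without any 1 of the 9-month arrays or 24-month array 3 and 2 with the normexp correction or the 7 arrays alone, and the list had no call with the slide block, where Foxa1 and Cebpa had adjusted p = 0.06 and 0.0661. Onecut1 lost its call without any 1 of the 9-month arrays or 24-month array 3 or 4 (up to 0.127), and Nr5a2 without the same arrays (up to 0.108).

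Notch1 was among the 20 largest falls, and its mean was low at 24 months alone. The receptor Notch1 read 0.65, 0.72 and 0.57 at 9 months and -1.15, -2.62, -3.89 and -0.45 at 24 months, a 6.38-fold fall (log2 change -2.67, SE 0.60, adjusted p = 0.00861). Its means at 3, 12 and 18 months were 0.64, 0.52 and 0.78. Rbpj, the DNA-binding partner of all Notch receptors, fell 2.02-fold (0.42 to 0.83 against -0.79 to -0.14, adjusted p = 0.00143), and its target Hes1 1.76-fold, while Notch4, a receptor of endothelium, rose 1.84-fold and Mfng, a glycosyltransferase that modifies Notch, 1.56-fold. Of 11 genes 3 fell and 2 rose (2 to 3 and 1 to 2 when 1 array was left out, none higher with the normexp correction, and 1 each way with the 7 arrays alone). Notch1 was not called with the 7 arrays alone (adjusted p = 0.0688), Notch4 with the normexp correction (0.118), Hes1 without 9-month array 1 or 2 or 24-month array 1, 2 or 3 (up to 0.174), and Mfng without any 1 of the 9-month arrays or 24-month array 2 or 3 (up to 0.101).

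Drug metabolism, antioxidant and metal-binding genes changed in small numbers, and the P450 count depended on which 24-month arrays were used. Por, the reductase that feeds electrons to the microsomal P450 enzymes, rose 4.47-fold, from 1.76, 1.95 and 2.11 to 4.64, 4.80, 2.80 and 4.15 (adjusted p = 0.00129), with array 3 the least raised. The metallothionein Mt2A rose 5.84-fold, from 6.02, 5.01 and 4.49 to 8.56, 6.91, 8.70 and 6.71, and Mt1 3.27-fold. Nfe2l2, the transcription factor NRF2, fell 1.85-fold, from 4.36 to 4.53 down to 3.27 to 3.67, and Cat, catalase, 1.5-fold. The P450 list had 3 of 25 genes higher and 2 lower, the phase II list 3 of 30 higher and 5 lower, and the antioxidant list 2 of 25 higher and 3 lower. Without 24-month array 4 these counts were 8 and 4, 4 and 8, and 4 and 6. Without 24-month arrays 3 and 4 they were 10 and 3, 3 and 7, and 3 and 3, with a median change of the P450 list of 0.76 against 0.27. Without any 1 of the 9-month arrays the P450 list had 1 gene each way and the phase II list 1 lower. With the slide block these lists held a single call, a higher gene of the P450 list. With the slide block Mt2A, Mt1 and Nfe2l2 were not called (adjusted p = 0.122, 0.126 and 0.0561), Mt1 was also not called without 9-month array 2 or 3 (up to 0.0638), and Cat was lost when any 1 array but 24-month arrays 1 and 4 was left out (up to 0.151).

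Fatty acid oxidation gave 4 of 37 genes higher and 1 lower, with a median change of 0.11. Ppara, the receptor that raises oxidation in fasting, rose 2.37-fold, from -0.01, -0.17 and -0.06 to 1.87, 0.60, 1.21 and 0.97 (adjusted p = 0.00287), and its coactivator Ppargc1a 2.33-fold. Decr1, the dienoyl-CoA reductase, rose 1.78-fold, from between 5.86 and 6.28 to between 6.54 and 7.67. In lipoprotein handling Abcg1, which exports cholesterol, rose 2.21-fold, and Angptl4, an inhibitor of lipoprotein lipase induced by fasting, fell 4.56-fold, from 3.64 to 3.94 down to 2.75, 1.57, 1.95 and -0.03. Ppara was not called with the slide block (adjusted p = 0.0979), Abcg1 with the 7 arrays alone (0.0524), Ppargc1a without 9-month array 2 or 3 (up to 0.0654), Decr1 without 9-month array 2 (0.0903) and Angptl4 without any 1 of the 9-month arrays (up to 0.0723). The higher count of the oxidation list was 0 with the slide block, 1 with the normexp correction or the 7 arrays alone, 2 without 9-month array 2 or 3, 8 without 24-month array 4 and 10 without arrays 3 and 4.

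Several of the largest changes lay outside the lists. Slc1a2, a glutamate transporter, read -1.09, -1.39 and -1.18 at 9 months and 3.03, 2.79, 1.44 and 0.13 at 24 months, an 8.41-fold rise (adjusted p = 0.00687). Rnf186, a membrane ubiquitin ligase, was above background at 24 months alone, at 2.37, -1.43, 0.85 and -2.79, and at least 20.9-fold higher. Among the falls, Ddhd1, a phospholipase of phosphatidic acid, went from 3.05, 2.42 and 2.75 to -1.68, -0.77, -1.06 and -0.43 (13.2-fold, adjusted p = 0.000419). Chka, the choline kinase of phospholipid synthesis, fell 5.38-fold, from 1.09, 0.71 and 1.07 to -1.08, -2.01, -0.71 and -2.08. Cavin3, a coat protein of caveolae, fell 4.96-fold, from 6.04, 6.09 and 6.25 to 3.70, 3.20, 4.33 and 4.03 (adjusted p = 0.000121), and Tubb6, a beta tubulin, 5.11-fold. Etv3, an ETS-family repressor, fell 4.77-fold, with means of 1.74, 1.5, 1.52 and 1.63 at 3, 9, 12 and 18 months and -0.76 at 24 months. Slc25a30, a mitochondrial carrier, fell 5.36-fold, and its call was lost without 9-month array 1 (adjusted p = 0.0506), without 24-month arrays 3 and 4, with the mean of its probes and with the slide block. With that block Slc1a2 and Rnf186 were not called (0.128 and 0.0949), and Rnf186 was not called with the normexp correction either (0.104).

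Other genes could be measured at 9 months alone. Sult4a1, a sulphotransferase-like protein, read -0.88, -1.25 and -0.82 at 9 months and was above background on no 24-month array, at least 9.26-fold lower. St8sia1, a sialyltransferase of gangliosides, was at least 4.16-fold lower, Ptk6, a cytoplasmic tyrosine kinase, at least 3.83-fold, Msx2, a homeobox factor, at least 3.45-fold, and the olfactory receptor gene Or4k77 at least 3.84-fold. In all, 141 called genes with a symbol were above background on every 9-month array and on no 24-month array, and 10 the other way round. The share of spots well above background was 53% to 61.1% at 24 months and 58.9% to 64.8% at 9 months, and its part in these counts was not tested. With the normexp correction none of the 5 kept its call (adjusted p = 0.156, 0.508, 0.611, 0.737 and 0.611 for Sult4a1, St8sia1, Ptk6, Msx2 and Or4k77). Over the alternatives their smallest log2 changes, in that order, were 1.24, 0.65, 0.44, 0.29 and 0.45, each below its bound. The bounds hold for the main processing alone.

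Of 44 cytosolic ribosomal protein genes none rose and 2 fell (median change -0.02). Rps26 was the one with a large change, from 1.36, 1.39 and 1.40 to -1.15, -1.16, -3.47 and -2.41 (10.8-fold lower, adjusted p = 0.000241), and Rpl34 fell 1.54-fold. Ribosomal protein genes have many processed copies, and which of them the Rps26 probe reads was not tested. Oxidative phosphorylation had 3 of 37 subunits lower (8.11%, against 10.9% of all genes) and none higher (median change -0.28). Autophagy and lysosome genes had 2 of 34 higher and 1 lower, and cytosolic chaperones 1 of 21 higher. Cell division genes gave 1 of 38 higher, Ccne1, which drives entry into DNA synthesis (3.07-fold), and 2 lower, among them Cdc20, the activator of the anaphase-promoting complex (2.67-fold). Without 24-month array 2, on which the list's mean was highest, 11 cell division genes were lower. Without 24-month array 4, 8 ribosomal and 11 oxidative phosphorylation genes were lower, and without any 1 of the 9-month arrays no oxidative phosphorylation gene was. Ccne1 and Rpl34 were not called with the slide block (adjusted p = 0.0733 and 0.0518), nor Rpl34 with the normexp correction (0.0674). Quantile normalization gave 3 ribosomal protein genes higher.

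In the stellate cell, fibroblast and matrix list 2 of 34 genes rose and 2 fell (median change -0.05), with 0 to 6 higher and 1 to 6 lower when 1 array was left out, 6 each way without 24-month array 4, and none called with the slide block. Pdgfrb, the platelet-derived growth factor receptor of stellate cells, read 0.80, 0.22 and 0.88 at 9 months and -0.39, -0.72, 0.01 and -0.26 at 24 months, a 1.96-fold fall (adjusted p = 0.00501). Of 23 endothelial markers 3 rose (13.0%; 1 to 3 when 1 array was left out, and none with the slide block, the normexp correction or the 7 arrays alone) and none fell, among the risen Clec4g, a lectin of sinusoidal endothelium (2.84-fold). The summed endothelial signal was 99.6 to 106 times the 75th percentile at 9 months and 96.4 to 133 times at 24 months. With the slide block Pdgfrb and Clec4g were not called (adjusted p = 0.0903 and 0.0574).

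The 5 ages were used to place each called gene. Of the 1283 genes that were higher at 24 than at 9 months, 744 (58%) had their highest mean at 24 months, 816 (63.6%) had their lowest mean at 9 months, and 451 (35.2%) had both. In 741 of them (57.8%) the 3-month mean lay nearer to the 24-month than to the 9-month mean. Of the 2333 lower genes, 1838 (78.8%) had their lowest mean at 24 months, 1041 (44.6%) their highest at 9 months and 609 (26.1%) both, and in 599 (25.7%) the 3-month mean lay nearer to that of 24 months. These shares describe genes that were chosen by the same arrays, and they have no test. Igfbp1 and Gadd45b had their lowest and Angptl8 and Me1 their highest mean at 9 months, while Cd74 had its highest and Notch1, Etv3 and Gadd45g their lowest at 24 months.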

How the data were processed

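Expression was measured on 1-colour Agilent rat arrays, 16 in all. The authors deposited scanner files, whose processed signal is a background-corrected linear intensity made by Feature Extraction 10.7.3.1, per the file headers, with the raw mean and background signals beside it as intensity. The deposited files also hold flags for outlier and well-above-background spots. The deposited series table holds log2 values that correlated at 0.997 to 1.000 with the scanner values, with column medians of 4.92 to 4.94. Its between-array normalization is not given in the sources used here, and it served as an alternative.

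Outlier spots were set missing (79 values of 41012 probes on 16 arrays), spots of a probe were averaged, and log2 signals were shifted by each array's 75th percentile. A probe was kept where some age had every one of its arrays well above background (25697 probes), with the brightest probe per gene (21483 genes). Probes were named through RefSeq accession (18132), symbol (3134) or the file's own name (19746). limma 3.58.1 in R 4.3.3 fitted a mean per age, and the two-sided contrast of 24 minus 9 months was adjusted by Benjamini-Hochberg over all genes. The number of arrays, 3 and 4, limits the precision. A bound (at least N-fold) sets the measured group against the higher of the dim probe's own signal and the lowest signal among probes well above background. It holds for the main processing alone. Over the alternatives the smallest log2 changes of Per3, Epm2a and Rnf186 were 1.16, 1.17 and 2.13, below their bounds. The fit was also run on simulated data with independent normal noise and the same spread at all ages. That setting cannot test the calls against slide or against the unequal spreads of the ages.

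Named genes were the 20 largest rises and falls measured on all arrays of both ages, up to 5 members with the smallest adjusted p of each of 42 gene lists, and up to 5 genes measured at 1 age alone each way, by their bound. The members and lists were chosen with earlier results of these data known, and a list's count is a description. Per2 and Bhlhe40 are named besides, for their promoters. A few genes that the rule names are not reported here. Alternatives were quantile normalization, normexp background correction, the series table, both other probe filters, the mean of a gene's probes, the 7 arrays alone, slide as a random block, the replicate number as a block, the scan session of both ages, a 2-fold criterion, 24-month arrays 3 and 4 left out, and each array left out. After each gene's age mean was subtracted, same-numbered 9- and 24-month arrays correlated at -0.03, 0.05 and -0.23. Arrays of unlike number reached up to 0.30, so no pairing by number was seen.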

Additional observations from a re-analysis of the deposited data

Results flagged for a closer look

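Among 177 called named genes and 42 list means, 5 genes had 1 array of the 24-month group far from the other 3. The gap, as a share of the group's range, was beyond Dixon's critical value for 4 samples. Chance gives such a gap in about 1 in 20 groups, and the 5 genes are fewer than that rate would give. Sdhb, a subunit of succinate dehydrogenase, had a gap of 0.991 of the range: array 3 read 4.44 and the others 5.35 to 5.36. Nrep, a neuronal regeneration-related protein, had a gap of 0.87, with array 3 at -0.66 and the others at 1.31 to 1.60. Gsta1, a glutathione transferase, had a gap of 0.859, with array 3 at 7.74 and the others at 8.37 to 8.47. Usp2, the clock-driven deubiquitinase, had a gap of 0.846, with array 3 at 0.28 and the others at 2.52 to 2.93. Sult4a1 had a gap of 0.853, with array 4 at -3.96 and the others, like it not above background, at -6.58 to -6.19. Array 3 was the low array in 4 of the 5.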

How the results depend on the processing

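Under every alternative more genes were lower than higher at 24 months, with the narrowest split under normexp. The 3616 calls (1283 higher, 2333 lower) became 601 (299 and 302) with normexp, 1829 (546 and 1283) with the 7 arrays alone, 1020 (290 and 730) with slide as a random block (correlation 0.69) and 1868 (596 and 1272) with a 2-fold criterion. With probes above background on all arrays 2447 were called and 1355 were lower, of 16551 genes tested. Leaving out 1 array gave 2204 to 4779 calls, 739 to 1762 higher and 1454 to 3017 lower. The low ends came from the 9-month arrays (2229, 2204 and 2341 calls without array 1, 2 and 3), and the high end from leaving out 24-month array 4. The other counts stayed within 1.5 times: 3419 with quantile normalization, 3415 with the series table, 3215 without a filter, 3577 with the mean of a gene's probes, 3680 with the scan session of both ages and 3883 without 24-month arrays 3 and 4. With the replicate block 2944 genes were called. The numbers share no label beyond themselves, and 161 of the 177 named calls kept their side of the threshold with that block. Of those 177 calls, 106 held in every omission of 1 array, 62 with the slide block, 86 with normexp and 103 with the 7 arrays alone. The signs of 5 named changes turned, none of them past the threshold there: with normexp Cdkn2b was at 0.090, Ins2 at 0.084, RT1-CE10 at 0.26 and Rrm2 at 0.16, and with the mean of its probes Cldn4 was at 0.055. The causes were not tested. Signal over background limits the dim genes: those measured at 1 age only have a bound in place of a fold change.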

Other observations

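Cell cycle inhibitors and genes tied to senescence did not share a direction. Of 23 measured, 4 rose and 2 fell, and with 1 array left out 0 to 3 rose and 1 to 2 fell. Cdkn1b, which encodes the inhibitor p27, read 0.93 to 1.09 at 9 months and 1.23 to 1.58 at 24 months (1.34-fold higher, limma adjusted p = 0.0305). Cdkn2a, which encodes p16 and ARF, read -2.44, -2.08 and -2.53 at 9 months and -3.24, -2.74, -3.12 and -3.01 at 24 months, 1.60-fold lower (adjusted p = 0.0365), with no overlap. Mmp12, a macrophage elastase, rose 2.84-fold and Tgfb1, a profibrotic cytokine, 1.90-fold. None of these 4 calls held when 9-month array 2 was left out (adjusted p = 0.113, 0.152, 0.0704 and 0.0508), with the normexp correction or with the slide block.

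Amino acid genes changed in few members, 2 of 37 higher and 2 lower. Cth, the last enzyme of cysteine synthesis from methionine, fell 3.58-fold, from 4.66, 4.88 and 4.36 to 2.83, 2.96, 2.27 and 3.1 (limma adjusted p = 0.000634), and Phgdh, the first enzyme of serine synthesis, rose 5.27-fold, from -0.20 to 0.43 up to 1.68, 2.59, 3.12 and 2.84. The call of Cth held in every alternative, and that of Phgdh was lost without 9-month array 2 (0.0535), without 24-month arrays 3 and 4 and with the slide block (0.0978). Of 23 iron and haem genes 2 rose and 1 fell. Slc40a1, the iron exporter ferroportin, read 2.73 to 2.81 at 9 months and 3.30 to 3.64 at 24 months (1.56-fold, adjusted p = 0.0014). Of 25 genes of the endoplasmic reticulum Herpud1, a component of its degradation machinery, rose 2.27-fold and Atf4, a factor of the integrated stress response, fell 1.69-fold. Of 28 acute phase genes 2 rose, among them Lbp, the lipopolysaccharide-binding protein, at 4.47, 4.10, 6.24 and 2.30 against 2.01 to 2.19, and 1 fell, Crp (1.85-fold). Without 24-month array 4, 7 acute phase genes and 9 amino acid genes were lower. The call of Lbp was lost without any 1 of the 9-month arrays or 24-month array 1 (up to 0.0765), that of Crp without 9-month array 2 (0.0657), that of Atf4 with the slide block (0.0552), and those of Herpud1 and Slc40a1 with normexp (0.153 and 0.366). Apolipoprotein and lipoprotein genes gave 2 of 27 higher and 4 lower, with 1 lower without any 1 of the 9-month arrays and 10 lower without 24-month array 4. Cholangiocyte and progenitor markers gave 0 of 18 higher and 2 lower (0 to 1 and 1 to 2 when 1 array was left out). The lower share, 11.1%, was near the 10.9% of all genes. Pancreas enzymes gave 1 of 11 higher and 2 lower (0 to 1 and 1 to 3), and adipose markers 0 of 5 higher and 1 lower (0 to 2 and 0 to 1). None of 7 erythroid genes was called by limma in any alternative. None of 3 dendritic cell markers was called, while 1 was higher with the replicate block, without 24-month array 4 and without 24-month arrays 3 and 4.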
